A study of Mus musculus with 59 samples.

Results

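Foxd3, Foxb1, Foxa1, Foxa2 and Foxc1 are 5 mouse genes of the forkhead box (Fox) family, and the data here are the histone marks in 1 genome window for each of them. The windows, in build mm9, were Foxd3 at chr4:99220000-99384000 (164 kb), Foxb1 at chr9:69590000-69640000 (50 kb), Foxa1 at chr12:58625000-58665000 (40 kb), Foxa2 at chr2:147850000-147890000 (40 kb) and Foxc1 at chr13:31880000-31920000 (40 kb). All 5 genes had marked intervals: 213 of the 408766 H3K27me3 islands in the deposited lists overlapped a window, as did 73 of 539823 H3K27ac peaks and 90 of 158965 H3K4me3 peaks. The Foxd3 window was chosen on measured values, since it spans a region picked for its higher H3K27me3 reads in K27M than in WT tumours. How the other 4 windows were chosen, and whether neurosphere values played a part, is not stated. H3K27me3 in tumours is therefore given for all 5 genes as a description, with no test. The gene named for a window comes from that choice of windows: no mm9 annotation was used here, so exons, introns and start sites inside the windows are not placed.

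Fox proteins are transcription factors that bind DNA through a forkhead domain. Foxd3 is known for specifying neural crest, Foxa1 and Foxa2 are pioneer factors that open chromatin in endoderm and in the floor plate of the neural tube, Foxb1 marks parts of the developing diencephalon and neural tube, and Foxc1 acts in mesenchyme, meninges and vessels. Genes of this kind are classical targets of Polycomb repressive complex 2, which trimethylates histone H3 at lysine 27 (H3K27me3) where they are silent. Acetylation of the same residue (H3K27ac) goes with active promoters and enhancers, and H3K4me3 goes with promoters, so a promoter with both H3K27me3 and H3K4me3 is called bivalent.

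The study used chromatin immunoprecipitation and sequencing in mice whose H3f3a gene, which encodes histone H3.3, carries a Cre-dependent tagged K27M allele, the change found in human diffuse midline glioma. Brainstem tumours were Nestin-creERT2; H3f3aLSL-K27M-Tag/+ (6 tumours, numbered 1 to 6) or H3f3aLSL-WT-Tag/+ (5 tumours, numbered 7 to 11). All 11 also carried LSL-PDGFRαV544ins and Trp53flox/flox, so the WT tumours share every allele except K27M. Neurospheres (precursor cells of the brain grown as floating clusters) were made at e15.5 from Nestin-cre; H3f3aLSL-K27M-Tag/+ hindbrain (3 cultures) or forebrain (3 cultures), and from Nestin-cre; H3f3aLSL-WT-Tag/+ hindbrain (3 cultures). Both drivers use Nestin sequences, which are active in neural precursors, and neither the ages of the mice nor a WT forebrain H3K27me3 list were analysed here. H3K27ac was listed for all 11 tumours and H3K4me3 for K27M tumours 2 and 6 and WT tumours 7, 9 and 10. The sexes were unequal, with 4 males among the 6 K27M tumours and 1 male among the 5 WT tumours. The cultures were female except 1 WT hindbrain culture. Cell identity was not checked against marker genes, for want of their mm9 positions. In such bulk chromatin, fewer marked cells and less mark per cell cannot be told apart. Reads in autosomal H3K27me3 islands numbered 1878972 to 14400936 per library, and total library depth is not known.

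The promoter letters of the genes are shown because stretches rich in CG dinucleotides are where Polycomb and H3K4me3 marks are usually found. RefSeq sequences (GRCm38.p6, 250 bases before to 50 bases after the start) matched 4 of the 5 genes: Foxd3, Foxa1, Foxa2 and Foxc1. Each is written 5′ to 3′ on the gene's strand, with CG in capitals; for Foxa2, which has 3 listed starts, the start with most CG is shown.
Foxd3, chr4:99656049-99656348, plus strand: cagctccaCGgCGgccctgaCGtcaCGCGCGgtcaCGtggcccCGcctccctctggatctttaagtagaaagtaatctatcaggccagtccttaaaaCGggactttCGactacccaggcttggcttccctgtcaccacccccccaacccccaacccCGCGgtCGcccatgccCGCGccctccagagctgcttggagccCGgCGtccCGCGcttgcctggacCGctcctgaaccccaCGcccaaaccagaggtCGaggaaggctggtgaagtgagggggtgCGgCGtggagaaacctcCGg
Foxa1, chr12:57546062-57546361, minus strand: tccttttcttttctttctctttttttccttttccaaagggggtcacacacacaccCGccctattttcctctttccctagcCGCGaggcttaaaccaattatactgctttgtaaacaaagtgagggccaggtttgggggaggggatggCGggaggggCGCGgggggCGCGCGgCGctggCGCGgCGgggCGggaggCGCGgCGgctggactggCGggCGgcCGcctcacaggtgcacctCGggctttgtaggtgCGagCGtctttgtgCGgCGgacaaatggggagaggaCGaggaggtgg
Foxa2, chr2:148045899-148046198, minus strand: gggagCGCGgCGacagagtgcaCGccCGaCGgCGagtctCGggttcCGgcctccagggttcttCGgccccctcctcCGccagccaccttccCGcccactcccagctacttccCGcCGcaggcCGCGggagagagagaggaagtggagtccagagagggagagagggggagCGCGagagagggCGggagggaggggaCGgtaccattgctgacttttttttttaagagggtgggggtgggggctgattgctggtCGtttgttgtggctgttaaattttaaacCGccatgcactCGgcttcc
Foxc1, chr13:31806396-31806695, plus strand: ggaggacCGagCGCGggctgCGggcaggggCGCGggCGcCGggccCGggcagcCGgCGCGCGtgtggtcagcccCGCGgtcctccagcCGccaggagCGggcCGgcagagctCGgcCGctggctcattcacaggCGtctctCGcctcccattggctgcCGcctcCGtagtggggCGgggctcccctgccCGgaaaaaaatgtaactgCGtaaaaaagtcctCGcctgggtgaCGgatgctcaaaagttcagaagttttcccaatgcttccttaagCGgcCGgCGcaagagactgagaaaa
The Foxc1 promoter held 32 CG dinucleotides, a number that 9.52% of the 32851 RefSeq promoters of this length reached. Foxa1 held 26 (reached by 16.9%), Foxd3 25 (18.4%) and the Foxa2 start shown 23 (21.5%), against a median of 7 for all promoters. The other 2 Foxa2 starts held 12 and 13. A forkhead-type motif, TGTTTAC on either strand, was found once in the Foxa1 promoter and in none of the other printed promoters, and 3.65% of all promoters held it. These positions are in GRCm38.p6 and were not converted to mm9.

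H3K27me3 was found at all 5 windows in all 20 libraries. A level is given as reads of islands falling in the window per 1000000 reads in autosomal islands of the same library (RPM), which is a share of the marked chromatin and not an absolute amount. The Foxa1 and Foxa2 windows had their highest levels in the K27M cultures, at 3784 ± 72.2 RPM (SD, n = 3) and 3827 ± 149 (SD, n = 3) in forebrain and 3689 ± 128 (SD, n = 3) and 3470 ± 360 (SD, n = 3) in hindbrain. For both genes these 2 groups overlapped each other and lay above all other libraries. The next groups of both genes were K27M tumours and WT hindbrain cultures, which also overlapped, and WT tumours were lowest.
Foxd3 followed nearly the same order. K27M hindbrain cultures were highest at 3623 ± 164 RPM (SD, n = 3), K27M forebrain cultures came next at 3330 ± 83.6 (SD, n = 3) without overlap, and WT hindbrain cultures (1741 ± 198, SD, n = 3) overlapped K27M tumours (1333 ± 769, SD, n = 6). WT tumours were lowest at 228 ± 124 RPM (SD, n = 5) and overlapped no neighbour.
Foxc1 was the least marked of the 5 in the K27M forebrain, at 1111 ± 64.1 RPM (SD, n = 3), close to K27M hindbrain at 1086 ± 86.2 (SD, n = 3). Its other 3 groups, from 348 to 479 RPM, overlapped their neighbours. Foxb1 had an order of its own, with K27M forebrain highest at 3984 ± 57.3 RPM (SD, n = 3) and K27M hindbrain lowest of all groups at 252 ± 67.9 (SD, n = 3). Between them lay K27M tumours, WT hindbrain cultures and WT tumours, at 1095, 905 and 488 RPM, each overlapping its neighbour.

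**Figure D1:**
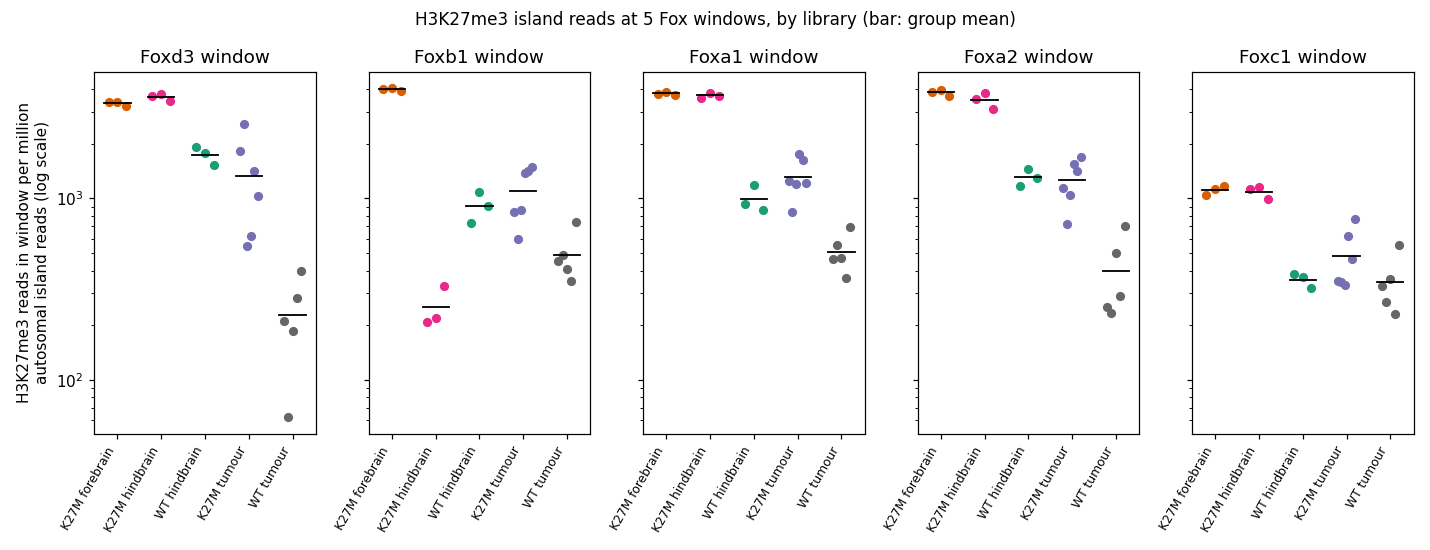
H3K27me3 in each Fox window as RPM (vertical axis, log scale), 1 point per library and a bar at the mean of each of the 5 groups. Foxb1 differs from the other 4 panels in the position of the K27M hindbrain cultures, at 207 to 330 RPM against 3922 to 4035 RPM in K27M forebrain.

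At Foxd3, H3K27me3 RPM was higher in every K27M tumour than in any WT tumour. The 6 K27M tumours had 1826, 2556, 550, 624, 1412 and 1029 RPM in the order 1 to 6. The 5 WT tumours had 212, 62.2, 185, 283 and 399 RPM in the order 7 to 11. The lowest K27M tumour, 3, lay above the highest WT tumour, 11, and the means differed 5.84-fold, a log2 ratio of 2.54. Over the merged region at chr4:99220601-99383400 edgeR gave a log2 fold of 2.49 (SE 0.50), which is stated here only to describe the selected window; the fit called 7.11% of 3067 regions higher and 4.66% lower.
Islands were centred on a core, with further islands around it in most tumours. In all tumours the strongest island lay over or within 80.2 to 117 kb from the window start, except in K27M tumours 1 and 2. In tumour 1 a single island ran for 71.6 kb from 91.2 kb onward, and in tumour 2 a single island of 162.8 kb filled the window; where the reads lay within these 2 islands is not known. Islands other than the strongest held 37.8, 30.9, 181 and 149 RPM in K27M tumours 3 to 6 and 18.4, 30.8, 10.3, 79.9 and 133 RPM in WT tumours 7 to 11. The strongest WT islands were 4.40 to 21.6 kb long. The shortest, in WT tumour 8, ranked 8022 by reads in a list of 25057 autosomal islands. Covered length was 69.1 ± 49.0 kb (SD, n = 6) in K27M and 27.7 ± 16.8 kb (SD, n = 5) in WT tumours, and on this measure the groups overlapped. Without tumour 2 the log2 ratio of RPM was 2.25, and among the 2 female K27M and 4 female WT tumours it was 2.35.

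**Figure D2:**
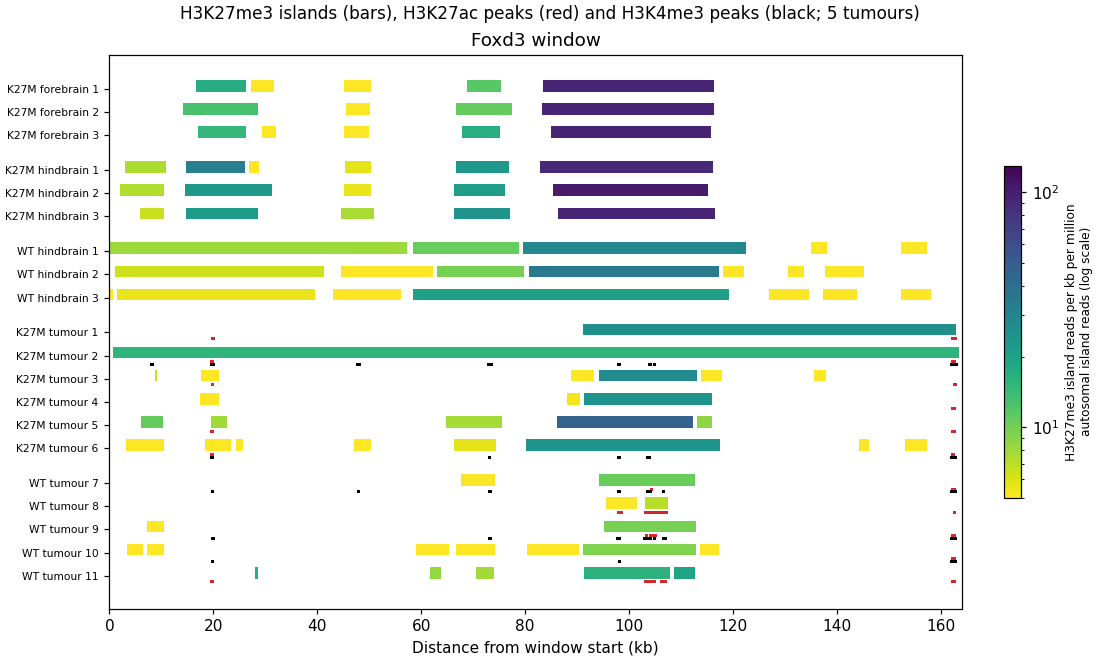
Islands of H3K27me3 in the Foxd3 window, 1 row per library, by distance from the window start in kb; colour gives island RPM per kb on a log scale. Red bars are H3K27ac peaks and black bars H3K4me3 peaks of the same tumour. Every row is marked within about 80 to 120 kb, but WT tumour 8 holds only 2 short islands there. K27M tumour 2 is marked over 162.8 kb. Red bars inside the core appear only in rows of WT tumours, in 4 of 5, and are longest in WT tumours 8 and 11.

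The pioneer factor genes Foxa1 and Foxa2 also had higher H3K27me3 RPM in K27M tumours. At Foxa1 the K27M tumours 1 to 6 had 1240, 839, 1195, 1758, 1635 and 1214 RPM, and the WT tumours 7 to 11 had 465, 551, 472, 363 and 693 RPM. The groups did not overlap, and the means of 1313 ± 333 (SD, n = 6) and 509 ± 123 (SD, n = 5) differed 2.58-fold. At Foxa2 the K27M values were 1137, 721, 1043, 1539, 1418 and 1680 RPM, and the WT values 251, 235, 498, 290 and 707 RPM. The lowest K27M tumour, 2, and the highest WT tumour, 11, nearly met, and the means of 1256 ± 356 (SD, n = 6) and 396 ± 203 (SD, n = 5) differed 3.17-fold. Islands covered 35.5 ± 4.67 kb (SD, n = 6) and 37.8 ± 1.45 kb (SD, n = 5) of the Foxa1 window, and 39.0 ± 1.18 kb (SD, n = 6) and 37.2 ± 2.56 kb (SD, n = 5) of the Foxa2 window, with overlap in both. Over the merged regions, each 96.6 kb wide and so reaching beyond the 40 kb windows, edgeR gave log2 folds of 0.86 (SE 0.19) for Foxa1 and 1.51 (SE 0.27) for Foxa2.
At Foxb1 the K27M tumours 1 to 6 had 838, 600, 865, 1370, 1412 and 1483 RPM, and the WT tumours 7 to 11 had 449, 489, 409, 352 and 740 RPM. K27M tumour 2 lay below WT tumour 11, so the groups overlapped, and the means differed 2.24-fold. Nearly the whole 50 kb was covered in both groups, at 49.4 ± 1.05 kb (SD, n = 6) and 49.3 ± 1.61 kb (SD, n = 5).
At Foxc1 the K27M values were 348, 344, 334, 618, 464 and 765 RPM and the WT values 329, 267, 360, 231 and 552 RPM. The groups overlapped, with means 1.38-fold apart. Its covered length was the reverse: islands spanned 23.5 ± 3.77 kb (SD, n = 6) in K27M and 34.5 ± 4.13 kb (SD, n = 5) in WT tumours, and the longest K27M value, 29.2 kb in tumour 2, lay below the shortest WT value, 29.8 kb in tumour 8. Of 4161 tiles of 40 kb marked in every tumour, 0.264% were covered over less and 0.649% over more length in K27M without overlap. The basis for choosing the Foxc1 window is not stated, so nothing is read from this. Over the merged regions edgeR gave log2 folds of 0.41 (SE 0.18) for Foxb1 and 0.29 (SE 0.25) for Foxc1. The Foxb1 region, chr9:69557401-69835200, was 277.8 kb wide and the Foxc1 region 53.2 kb, so these folds do not measure the same span as the windows. Without TMM factors, which moves the median of all tumour regions from -0.10 to -0.29, the log2 folds were 2.36 (Foxd3), 1.33 (Foxa2), 0.65 (Foxa1), 0.20 (Foxb1) and 0.10 (Foxc1).
In all, 3 of the 5 windows (Foxd3, Foxa1 and Foxa2) were higher in K27M tumours without overlap, and none was lower. Of the 4161 40 kb autosomal tiles with an island in every tumour, 5.00% were higher and 1.80% lower in the same way. The Foxd3 window was chosen on these values, and the basis for the other 4 is not stated. Nothing is therefore read from the comparison. Unscaled, the reads of islands overlapping a window did not separate the groups at any of these 3 genes. At Foxd3 they were 3310 to 23892 in K27M and 297 to 4079 in WT tumours. The ranges were 4946 to 18877 and 1357 to 8951 at Foxa1, and 4231 to 20625 and 1122 to 5790 at Foxa2. Depth and sex moved with the groups in part, as WT tumours 10 and 11 had the extreme island depths and the sexes were unequal. Their part in these differences was not tested. Among the 2 female K27M and 4 female WT tumours the log2 ratios were 1.46 for Foxa1, 2.06 for Foxa2, 1.51 for Foxb1 and 0.83 for Foxc1.

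H3K27ac was found in the Foxd3 and Foxc1 windows in all 11 tumours and was nearly absent from the other 3 windows. At Foxd3 the only site called in all 11 lay at the right edge of the window, outside the H3K27me3 core. Earlier H3K27ac results of these data were also known when the genes were chosen. H3K27ac peaks covered 1381 ± 567 bp (SD, n = 6) of the Foxd3 window in K27M and 2817 ± 2211 bp (SD, n = 5) in WT tumours. The K27M tumours 1 to 6 had 2106, 1781, 742, 699, 1600 and 1359 bp, and the WT tumours 7 to 11 had 839, 5432, 1914, 957 and 4943 bp. WT tumours 8 and 11 were far above the rest and the groups overlapped (two-sided exact permutation test, p = 0.197, adjusted p = 0.936 over all tiles).
Within the Foxd3 window 1 H3K27ac site was shared by all tumours, and 2 others had the most unequal calls in the 2 genotypes without passing adjustment. Further sites were called in WT tumours only, among them 1 at 105.9 to 107.5 kb (0 of 6 K27M tumours, 2 of 5 WT tumours, 8 and 11). A peak at 161.9 to 163.1 kb from the window start (chr4:99381856-99383064), at its right edge, was present in 6 of 6 K27M and 5 of 5 WT tumours and reached a fold enrichment of 20.2 in K27M tumour 1, in the authors' own value. In GRCm38.p6 the gene Alg6 begins 56.9 kb to the right of Foxd3, and whether this peak lies at Alg6 was not determined. H3K4me3 at 161.7 to 163.2 kb was called in 2 of 2 K27M and 3 of 3 WT tumours, with fold enrichment up to 34.8. The whole-window H3K27ac lengths include this edge peak, so they need not describe Foxd3 itself. A site at 102.8 to 105.2 kb (chr4:99322840-99325198), in the H3K27me3 core, held H3K27ac in 0 of 6 K27M and in 4 of 5 WT tumours, all except tumour 10. The WT calls were unequal. Tumours 8 and 11 had peaks of 2354 and 2350 bp, at 16.0- and 11.1-fold enrichment. Tumour 9 had peaks of 680, 339 and 214 bp at up to 5.49-fold. Tumour 7 had 1 peak of 200 bp at 3.62-fold, with a -log10 q of 2.91 in lists that begin at 2. A site at 19.4 to 20.4 kb (chr4:99239394-99240405) held it in 5 of 6 K27M and 1 of 5 WT tumours.
Two-sided Fisher's exact tests, chosen after the values had been seen, gave p = 0.0152 for the core site (adjusted p = 0.621) and p = 0.0801 for the left site (adjusted p = 0.845). The test counts a weak call, as in WT tumours 7 and 9 at the core site, like a strong one. Of 14880 merged H3K27ac sites whose number of calls allowed a test, 2.44% had an unadjusted p under 0.05 (1.12% lower and 1.32% higher in K27M), and 0% an adjusted one. Over the middle 50% of the window alone, the difference K27M minus WT was -2017 bp (two-sided exact permutation test, unadjusted p = 0.0152), and over the alternatives run p ranged from 0.0152 to 0.467. For the whole window the difference of -1436 bp became -782 bp without WT tumour 8 and -904 bp without WT tumour 11.
Foxc1 had H3K27ac over 1902 ± 951 bp (SD, n = 6) in K27M and 1259 ± 967 bp (SD, n = 5) in WT tumours, from 896 to 3635 bp and from 390 to 2769 bp, with overlap (exact permutation p = 0.323, adjusted p = 0.936). The difference of 643 bp became 296 bp without K27M tumour 5, 426 bp without WT tumour 9, 1020 bp without WT tumour 10 and 1148 bp among females, with exact permutation p from 0.0810 to 0.595 over all alternatives. Its site at 18.7 to 21.2 kb (chr13:31898657-31901223) was called in all 11 tumours, and a site at 32.5 to 33.2 kb in 4 of 6 K27M and 2 of 5 WT tumours. In GRCm38.p6 the gene Gmds lies 8.95 kb to the right of Foxc1, and whether the site at 32.5 to 33.2 kb lies at Gmds was not determined. Lengths over the whole Foxc1 window, for every mark, need not describe Foxc1 alone. At the Foxa1 window no tumour of the 11 had an H3K27ac peak. At Foxb1 only WT tumour 11 had peaks (741 bp), and at Foxa2 only WT tumour 7 had one (530 bp, 3.65-fold enrichment); both gave exact permutation p = 0.455. None of the 5 windows had groups that did not overlap, against 0.267% of 27708 tiles higher and 0.206% lower in K27M. None passed after adjustment, as was true of all 27713 tiles and windows tested (0%), of which 4.27% had an unadjusted p under 0.05.

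H3K4me3 peaks covered most sequence at Foxc1 and at Foxd3, whose window is wider. With 2 K27M and 3 WT tumours, the smallest p of the two-sided exact permutation test was 0.100, so no difference could pass 0.05. At Foxc1 the K27M tumours 2 and 6 had 8190 and 7728 bp and the WT tumours 7, 9 and 10 had 6319, 4379 and 6195 bp. Both K27M tumours lay above all 3 WT tumours (exact permutation p = 0.100, adjusted p = 0.925). A merged site at 21.4 to 22.1 kb held a peak in both K27M tumours and in no WT tumour. It joins a 353 bp peak of tumour 2 (3.63-fold) and a 445 bp peak of tumour 6 (5.13-fold), which overlap only at their ends. The main site at 17.7 to 21.1 kb was called in all 5.
Foxa1 went the other way, with 0 and 440 bp in K27M tumours 2 and 6 and 1628, 1042 and 1464 bp in WT tumours 7, 9 and 10 (exact permutation p = 0.100, adjusted p = 0.925). Its left site, at 14.5 to 15.4 kb, held H3K4me3 in 0 of 2 K27M and 3 of 3 WT tumours, and its right site, at 21.1 to 22.1 kb, in 1 of 2 and 3 of 3. These 2 windows, 1 higher and 1 lower, stand beside 13.6% of 21892 tiles that were higher and 5.63% that were lower without overlap.
At Foxa2 the K27M tumours had 458 and 601 bp and the WT tumours 4506, 233 and 3520 bp. WT tumours 7 and 10 were well above both K27M tumours, but WT tumour 9 was below them, so the groups overlapped (exact permutation p = 0.400). The Foxa2 site at 20.0 to 22.4 kb had a fold enrichment of 23.6 in WT tumour 7. Foxb1 had 739 and 518 bp in K27M and 0, 0 and 774 bp in WT tumours (exact permutation p = 0.400). Foxd3 had 5914 and 3412 bp in K27M and 4504, 5867 and 2115 bp in WT tumours (exact permutation p = 0.900). In contrast to H3K27ac, H3K4me3 at the Foxd3 core, at 102.7 to 104.4 kb, was called in both K27M tumours and in 2 of 3 WT tumours.

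**Figure D3:**
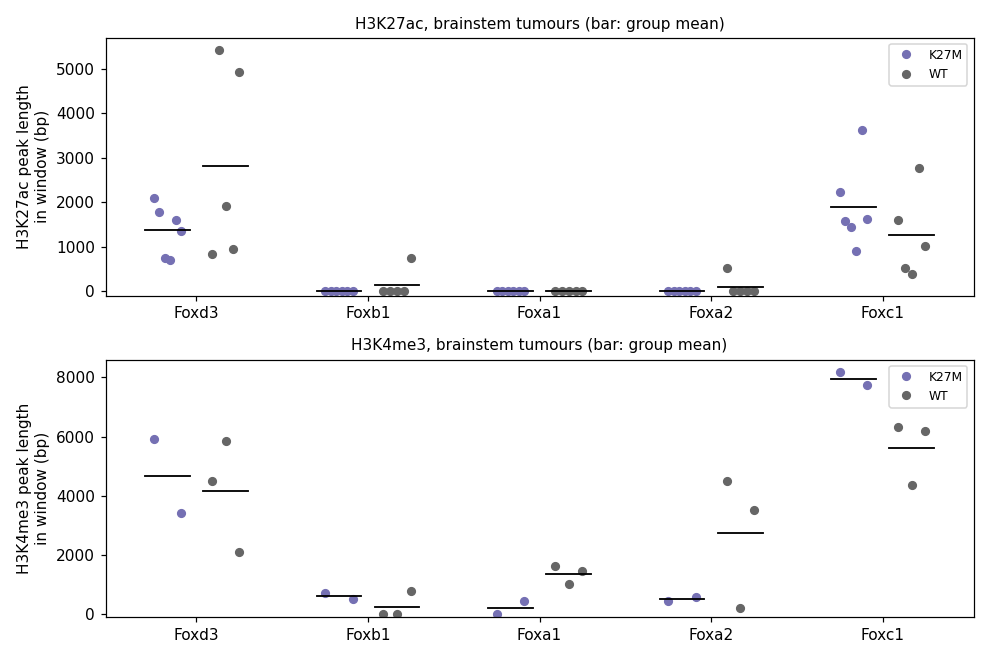
Length of H3K27ac peaks (upper panel) and H3K4me3 peaks (lower panel) in each Fox window in bp, 1 point per tumour, with a bar at the mean of K27M and WT tumours. H3K27ac was seen in the Foxd3 and Foxc1 windows in every tumour and in the Foxa1 window in none. At Foxd3 the only site shared by every tumour lay at the right edge of the window. H3K4me3 was longer in K27M at Foxc1 and shorter at Foxa1 without overlap of 2 against 3 tumours.

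Most H3K4me3 peaks of these genes lay in H3K27me3 islands of the same tumour, the arrangement called bivalent where both marks sit on the same chromatin, which bulk lists cannot show. All H3K4me3 peaks touched an island at Foxa1 (1 of 1 in K27M, 7 of 7 in WT), Foxa2 (3 of 3 and 9 of 9) and Foxb1 (3 of 3 and 2 of 2). At Foxc1 the numbers were 15 of 17 and 16 of 16, and at Foxd3 14 of 15 in K27M and 9 of 17 in WT tumours. Among all H3K4me3 peaks of these 5 tumours, 23.7% to 29.1% touched an island. The Foxd3 window was chosen on H3K27me3 and the basis for the other 4 is not stated, so a high share may follow in part from the choice. Islands also covered most of the Foxa1, Foxa2 and Foxb1 windows, so nearly any peak there would touch one. In K27M tumour 2 a single island filled the Foxd3 window, so its 9 of 9 H3K4me3 peaks touched it wherever they lay. K27M tumour 6 had 5 of 6. The Foxd3 shares of K27M and WT tumours are therefore not compared. H3K27ac peaks touched islands more unevenly. At Foxc1 19 of 23 peaks did in K27M and 13 of 13 in WT tumours, and at Foxd3 6 of 13 and 12 of 21, against 4.53% to 21.6% of all H3K27ac peaks in the 11 tumours.

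In hindbrain neurospheres, 4 of the 5 genes had a larger share of H3K27me3 reads in K27M than in WT cultures, and Foxb1 had a smaller one. The genes were chosen with earlier results of these data known, and whether neurosphere values played a part is not stated. The p-values below may therefore in part follow from that choice. The cultures are given in the order of experiments 1 to 3. At Foxa1 the K27M cultures had 3572, 3825 and 3669 RPM and the WT cultures 934, 1183 and 860 RPM, a 3.72-fold difference. At Foxc1 the values were 1119, 1150 and 988 RPM against 381, 370 and 320 RPM, a 3.04-fold difference. At both genes every K27M culture was far above every WT culture. At Foxa2 they were 3512, 3807 and 3091 RPM against 1163, 1455 and 1292 RPM (2.66-fold), and at Foxd3 3668, 3760 and 3442 RPM against 1913, 1784 and 1525 RPM (2.08-fold). At Foxb1 the K27M cultures had 207, 218 and 330 RPM and the WT cultures 730, 1079 and 907 RPM, a ratio of 0.278.
None of the 5 pairs of groups overlapped. Each had p = 0.100 by a two-sided exact permutation test, the smallest that 3 against 3 cultures allow (adjusted p = 0.144). Of 3992 tiles marked in every culture, 19.1% were higher and 50.4% lower in K27M without overlap, so the direction of Foxb1 was the commoner one.
The edgeR quasi-likelihood test over 3334 regions called in all 6 cultures, with Benjamini-Hochberg adjustment, called all 5 genes. The log2 fold of K27M over WT was 2.03 for Foxc1 (SE 0.14, adjusted p = 0.000136), 1.68 for Foxa1 (SE 0.13, adjusted p = 0.000151), 1.67 for Foxa2 (SE 0.15, adjusted p = 0.000219), 1.47 for Foxd3 (SE 0.13, adjusted p = 0.000211) and -1.44 for Foxb1 (SE 0.22, adjusted p = 0.00218). Of all regions tested, 25.9% were called higher and 28.4% lower. The median region had a log2 fold of -0.11, and -1.02 without TMM factors. On that scale the 4 higher genes were at 0.56 (Foxd3), 0.75 (Foxa2), 0.77 (Foxa1) and 1.12 (Foxc1), Foxb1 was at -2.34, and all 5 calls held.
The K27M cultures had fewer reads in islands (4376553 to 5321143) than the WT cultures (6199003 to 9072944), so a larger share need not be a larger amount. Unscaled, the islands overlapping the Foxa1 window held 18638 ± 1463 reads in K27M and 12089 ± 1914 in WT cultures (SD, n = 3 each). The numbers were 20125 ± 2360 and 13058 ± 2192 for Foxa2, 17483 ± 1763 and 13045 ± 967 for Foxd3, 5240 ± 639 and 2610 ± 274 for Foxc1, and 1213 ± 326 and 6812 ± 2019 for Foxb1. None of these pairs of groups overlapped, and total depth, which they also depend on, was not known. The strongest Foxa1 island was 53.2 to 71.4 kb long in WT and 32.6 to 37.2 kb in K27M cultures, so the 40 kb window took only part of the WT reads. With all reads of overlapping islands, the log2 ratio of RPM was 1.24 at Foxa1 and 1.24 at Foxa2, where the windows gave 1.89 and 1.41.
Islands covered less of 4 of the 5 windows in K27M, as they did over most of the marked genome. Of the 3992 tiles, 79.4% were covered over less and 0.401% over more length in K27M without overlap, and whole lists covered 81.0 to 97.7 Mb in K27M and 192 to 217 Mb in WT hindbrain. Islands covered 68.5 ± 2.32 kb (SD, n = 3) of the Foxd3 window in K27M and 129 ± 3.32 kb (SD, n = 3) in WT cultures, without overlap. In K27M hindbrain 81.2% to 81.9% of the window's reads lay in the core island, which was 29.8 to 33.4 kb long, and in WT 60.4% to 78.6% lay in an island of 36.4 to 60.8 kb. Foxa1 (33.6 ± 1.11 against 39.7 ± 0.462 kb, SD, n = 3) and Foxa2 (35.0 ± 1.64 against 39.1 ± 0.231 kb, SD, n = 3) were covered over less of their windows in K27M without overlap. Foxb1 was covered over 21.7 ± 0.833 kb against 41.8 ± 1.93 kb (SD, n = 3). These 4 lengths had p = 0.100 and Foxc1, at 17.5 ± 0.808 against 18.1 ± 0.945 kb (SD, n = 3), overlapped (p = 0.500; two-sided exact permutation tests). The only male culture, WT of experiment 3, changed none of the 5 directions or calls when left out.

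By mean window RPM, the K27M forebrain and hindbrain cultures were far apart at Foxb1 and within 1.10-fold of each other at the other 4 genes. Over merged regions, Foxa2 and the flanks of Foxd3 differed more, as given below. This comparison shares the K27M hindbrain cultures with the one before. As there, its p-values, and the place of a fold among all regions, may in part follow from the choice of genes. At Foxb1 the forebrain cultures had 3995, 4035 and 3922 RPM, and the hindbrain cultures, as above, 207 to 330 RPM, a 15.8-fold difference. The forebrain cultures were close to each other and no hindbrain culture came near them. Over chr9:69594401-69635800 edgeR gave a log2 fold of 4.14 (SE 0.16, adjusted p = 3e-06), higher than 99.8% of the 3363 regions tested, with 3154 ± 190 and 178.7 ± 33.8 CPM (SD, n = 3 each). Of the 8 regions at the 5 genes in that fit, 3 were called (Foxb1 and 2 at Foxd3), beside 31.4% of all regions.
The single Foxb1 island of the forebrain cultures was 36.8 to 41.4 kb long and held rank 36 to 38 by reads in lists of 4860 to 5302 autosomal islands. In K27M hindbrain the strongest Foxb1 island was 18.0 to 22.6 kb long, lay inside the span of the forebrain island, and ranked no higher than 422 in lists of 6020 to 7614. In WT hindbrain it was 39.6 to 42.0 kb long and held rank 119 to 172 of 16008 to 19476. The lists differ in length, so these ranks describe each list and are not compared. Unscaled, Foxb1 islands held 16872 ± 1720 reads in forebrain against 1213 ± 326 in K27M hindbrain (SD, n = 3 each), at 3775395 to 4671583 and 4376553 to 5321143 autosomal island reads.

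**Figure D4:**
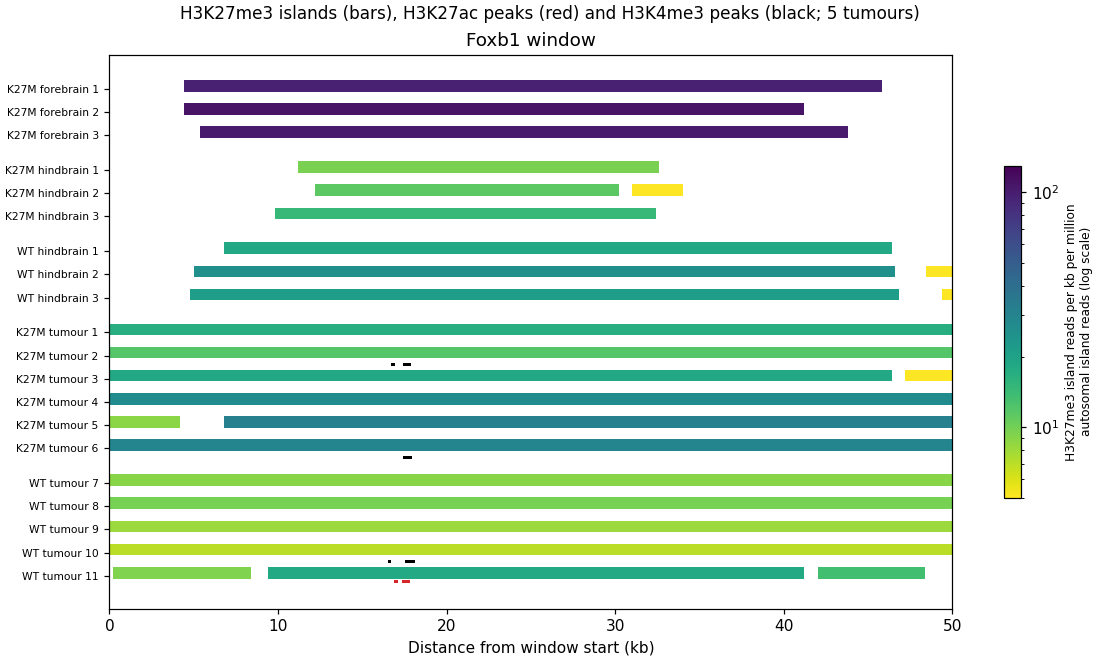
Islands of H3K27me3 in the Foxb1 window by library and distance from the window start in kb, coloured by island RPM per kb (log scale), with H3K27ac peaks in red and H3K4me3 peaks in black. K27M forebrain rows hold 1 dense island of 36.8 to 41.4 kb, the strongest islands in K27M hindbrain rows are paler and 18.0 to 22.6 kb long, and tumour rows are covered over 46.4 to 50.0 kb.

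Foxa1 (3765, 3864 and 3724 RPM in forebrain) and Foxa2 (3834, 3972 and 3674 RPM) overlapped the hindbrain values given above (exact permutation p = 0.400 and 0.200), and so did Foxc1 (1042, 1122 and 1169 RPM, p = 0.600). Their edgeR log2 folds were 0.20 (SE 0.13, adjusted p = 0.258), 0.37 (SE 0.15, adjusted p = 0.0902) and 0.16 (SE 0.14, adjusted p = 0.385). Forebrain and hindbrain cultures of 1 experiment share a number and a letter, and their deviations correlated weakly (0.21, 0.24 and 0.21). They were therefore also compared within experiments. Forebrain exceeded hindbrain in experiments 1 to 3 by 193, 38.9 and 55.1 RPM at Foxa1 and by 322, 164 and 584 RPM at Foxa2, in 3 of 3 pairs each. At Foxc1 the differences were -77.0, -28.2 and 181 RPM. Foxa2 passed with experiment as a replicate block (log2 fold 0.39, edgeR adjusted p = 0.0219), where Foxa1 (0.21, edgeR adjusted p = 0.104) and Foxc1 (0.18, edgeR adjusted p = 0.228) did not. Over its merged region Foxa2 had 3909 ± 280 CPM in forebrain and 3022 ± 585 in hindbrain (SD, n = 3 each), without overlap. Foxa2 also passed without K27M hindbrain culture 2 (0.49, adjusted p = 0.0119), and Foxa1 without that culture (0.29, adjusted p = 0.0316). Over all alternatives the adjusted p ranged from 0.0119 to 0.238 for Foxa2 and from 0.0316 to 0.612 for Foxa1.
Foxd3 had 3380, 3376 and 3233 RPM in forebrain, all below the 3442 to 3760 RPM of hindbrain (two-sided exact permutation test, p = 0.100, adjusted p = 0.210). Within experiments 1 to 3, forebrain minus hindbrain was -288, -384 and -208 RPM. The difference lay outside its core. The core region, chr4:99302801-99336600, had a log2 fold of forebrain over hindbrain of 0.17 (SE 0.13, edgeR adjusted p = 0.324). The flanking regions at chr4:99234201-99252000 and chr4:99286401-99297400 had log2 folds of -0.88 (SE 0.19, edgeR adjusted p = 0.00901) and -1.01 (SE 0.19, edgeR adjusted p = 0.00464), and that at chr4:99264601-99271000 had -0.53 (SE 0.23, edgeR adjusted p = 0.119). Accordingly 90.3% to 91.7% of Foxd3 reads lay in the core island in forebrain against 81.2% to 81.9% in hindbrain. Of 2945 tiles marked in all 6 cultures, 21.8% were higher and 25.9% lower in forebrain without overlap, beside 1 of 5 windows in each direction here (Foxb1 and Foxd3).

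**Figure D5:**
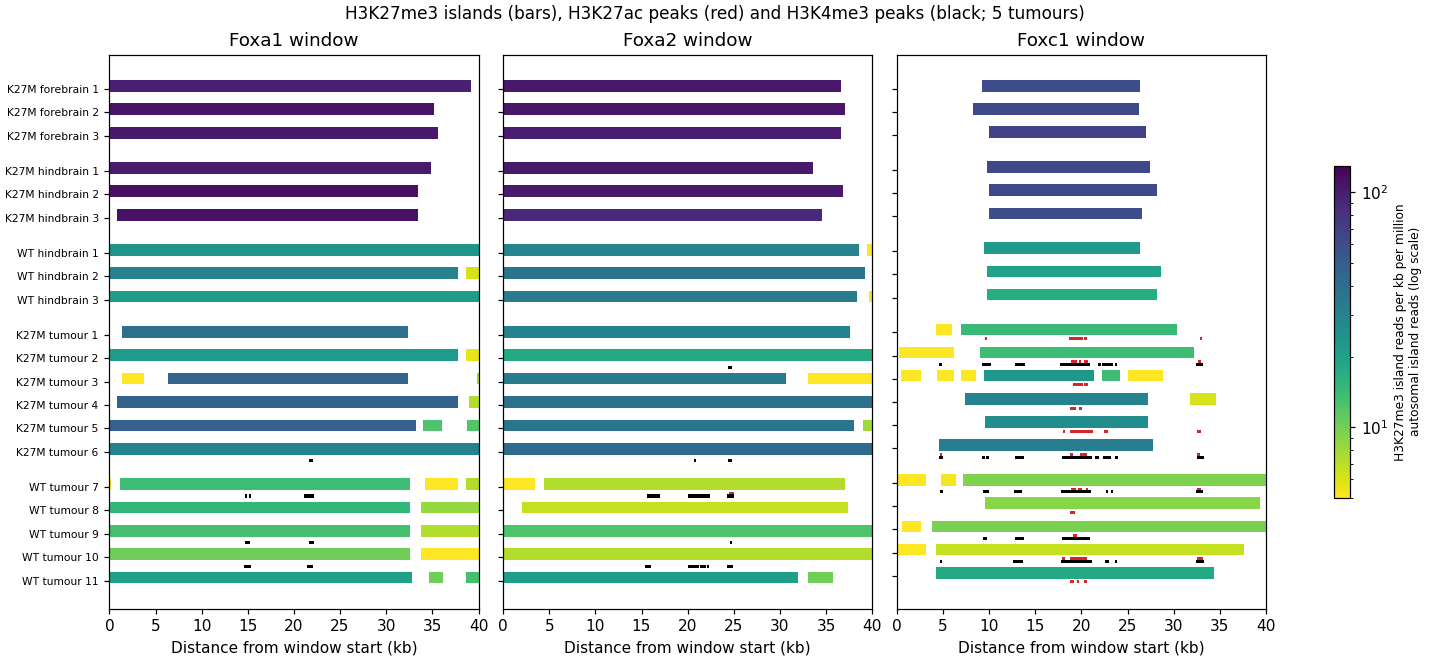
Islands of H3K27me3 in the Foxa1, Foxa2 and Foxc1 windows by library and distance from the window start in kb, coloured by island RPM per kb (log scale), with H3K27ac peaks in red and H3K4me3 peaks in black. The K27M culture rows are densest at Foxa1 and Foxa2, and at Foxc1 the islands of WT tumours (29.8 to 38.2 kb covered) reach further than those of K27M tumours (17.6 to 29.2 kb).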

How the data were processed

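ChIP-seq lists of 36 of the 59 samples were used; the other 23 samples were input DNA, for which no list was analysed here. The submitters' processing notes name SICER 1.1, MACS2, BWA 0.7.12, SAMtools, Picard, bedtools and R 2.14.0, and build mm9. The 20 deposited H3K27me3 lists give a count of whole reads per island (window 200 bp, gap 600 bp, per the file names). The 11 H3K27ac and 5 H3K4me3 lists have the narrowPeak layout: per peak, the authors deposited a fold enrichment ratio, a score, and p and q on the -log10 scale, with q at least 2 on it. Lists came from single samples. Drosophila chromatin was added per the labels' protocols, but no scale factor was used here, so no value is an absolute amount.

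Island reads were apportioned to a window by overlap and scaled to 1000000 reads in autosomal islands of the library. Windows and 40 kb autosomal tiles (40000 bp) were compared by exact permutation tests, adjusted by Benjamini-Hochberg over all tiles and windows. Island reads of regions merged over a comparison and called in every library went into the quasi-likelihood test of edgeR 4.0.16 with TMM scaling, run in R 4.3.3 at a threshold of 0.05, with DESeq2 1.42.0 as an alternative. H3K27ac sites were tested with Fisher's exact test over all sites that could reach an unadjusted p of 0.05. Both tests were checked on simulated data. The rest used SciPy 1.17.1, pandas 2.3.3 and matplotlib 3.10.9 in Python 3.11.15.

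The genes, windows and lists were chosen with earlier results of these data known. All 5 genes are named. Within windows, selected merged sites and the strongest island are described, and not every site is given. The 2 regions most like each gene's region over the tumours are given. Marker genes and other Fox genes could not be placed on mm9 and were left out. Labels number the tumours and cultures without saying that they came from separate animals, so p-values reflect only the spread among samples, which may be technical. The labels give neurosphere libraries experiment numbers shared across groups. Taken as deviations from the group mean, libraries with the same number correlated at 0.10, -0.03 and 0.02 (hindbrain K27M and WT) and at 0.21, 0.24 and 0.21 (forebrain and hindbrain K27M). Only the latter, which also share a letter in their titles, were taken as pairs. Alternatives were each replicate left out, other scalings, list lengths, spans and thresholds, sex, and the experiment as a block.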

Additional observations from a re-analysis of the deposited data

Results flagged for a closer look

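Of 26 sets of 5 or 6 tumours, which share tumours and windows, 5 had a lowest or highest tumour far from the others. Chance gives about 1 in 20 for values that vary freely, a rate that does not apply to 3 of the 5, in which all other tumours tied at 0 bp or at the full window. Nor does it apply to the Foxb1 set of K27M tumours, in which tumours 1, 2, 4 and 6 tied at the full window (50001 bp). At Foxd3, K27M tumour 2 had H3K27me3 over 162800 bp, with 71600 bp in the next tumour. At Foxb1, K27M tumour 5 had H3K27me3 over 47401 bp (next 49201 bp) and WT tumour 11 over 46400 bp (the other 4 WT tumours 50001 bp). WT tumour 11 was also the only tumour with H3K27ac in the Foxb1 window (741 bp), and WT tumour 7 the only one with H3K27ac in the Foxa2 window (530 bp), with 0 bp in the others.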

How the results depend on the processing

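The direction of each of the 5 tumour H3K27me3 ratios and of the 5 hindbrain ones held under every alternative run. The log2 ratio of RPM ranged from 2.06 to 2.86 for Foxd3, 1.03 to 1.51 for Foxa1 and 1.52 to 2.06 for Foxa2 in tumours, and from -2.09 to -1.23 for Foxb1 in hindbrain cultures. The 3 windows higher in K27M tumours without overlap became 2 with equal list lengths and over the middle 50% of each window, and 4 without K27M tumour 2, without WT tumour 11, with reads of all chromosomes as the base and among females. For Foxb1 in forebrain against hindbrain the log2 ratio was 3.46 to 4.23. The small Foxd3 difference of forebrain from hindbrain changed sign, to 0.01 with TMM scaling over common regions and to 0.04 for the strongest island alone, an alternative added after the data were seen. Accordingly the number of windows lower in forebrain without overlap fell from 1 to 0 under these 2 settings, over the middle 50% of each window and with island reads of all chromosomes as the base. The number higher went from 1 to 2 with all reads of overlapping islands and with the strongest island, and was 1 to 3 when single cultures were left out (2 without forebrain culture 3, 3 without hindbrain culture 2). For H3K4me3, 1 to 2 windows were higher and 1 to 2 lower without overlap when single tumours were left out (2 higher without K27M tumour 6 or WT tumour 10, 2 lower without WT tumour 9).
Counts over all regions moved more. In tumours, 218 regions were called higher and 143 lower; DESeq2 gave 339 and 295, no TMM factors 300 lower, and regions of at least 1 library 117 and 61. Leaving out single tumours gave 79 to 159 lower (79 to 90 without K27M tumours 1 or 6 or WT tumours 7, 8 or 9). In hindbrain, 863 and 946 became 319 and 2129 without TMM factors and 4202 lower with regions of at least 1 library. In forebrain against hindbrain the latter turned 535 lower into 1091. With experiment as a replicate block, hindbrain counts were 813 and 899, although there the cultures share only a number and their pairing was not supported by the correlations, and forebrain counts were 619 and 661; the block changed no call for these genes other than that of Foxa2 in forebrain against hindbrain. Depth limits the weak islands: a window without one has no count, and total depth is not known.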

Other observations

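Over the 11 tumours, the H3K27me3 level of each merged Fox region (log2 CPM) was compared with that of every other region called in all tumours. Except at Foxd3, these Fox regions are wider than the windows, up to 277.8 kb at Foxb1. The regions most alike are given by position in mm9 as a description with no p, and all points share the tumours and their depth. Foxa1 was followed most closely by chr12:57525801-57679000, on its own chromosome, with Pearson r of 0.98, and by chr12:120065201-120114600 (0.977). Foxa2 was followed by chr11:83601001-83754800 (0.966) and chr6:83589401-83719000 (0.953), and Foxd3 by chr2:122098801-122150400 (0.929) and chr6:53742801-53783200 (0.914). For Foxb1 they were chr1:129564601-129583800 (0.885) and chr10:102451201-102517600 (0.878), and for Foxc1 chr8:12227001-12569800 (0.834) and chr13:95428201-95501600 (0.819). None of these 10 regions is another of the 5 Fox regions.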
